A study of Mus musculus with 12 samples.

Results

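The 30 genes described here serve the synthesis, uptake and regulation of cholesterol. They were chosen as a fixed list of named genes, matched by symbol among the 43432 genes of the count table. All 30 were found, and all 30 were among the 17257 genes that passed the filter on low counts. The list holds 20 enzymes, of which 8 act in the mevalonate and isoprenoid steps and 12 in the sterol steps, with 5 regulators and 5 proteins of sterol transport. It does not cover every enzyme of the pathway.

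RNA was sequenced after polyA selection from sciatic nerve of 12 mice at P30 (postnatal day 30), with 1 nerve of 1 mouse in each library. The 3 groups of 4 libraries were WT controls, *Mtmr2* KO without niacin (called untreated here) and niacin-treated *Mtmr2* KO, each with 3 males and 1 female. The *Mtmr2* KO mice of both groups carried the null genotype in every cell type (*Mtmr2* -/-), on a 129/SvPas background, and they model the demyelinating neuropathy CMT4B1. *Mtmr2* encodes a phosphatase that removes phosphate from phosphoinositides. Niacin, a lipid-lowering vitamin, was injected i.p. at 120 mg/Kg from P10, replaced at P21 by gavage with slow-release niacin (Niacin-SR), and continued to P30. The WT controls and the untreated *Mtmr2* KO mice received no niacin. The labels enter none as the treatment of the latter, and the study's text calls them vehicle treated where niacin was compared with them, so whether they received vehicle is not settled by these sources. In addition, no niacin-treated WT group was analysed here.

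Cells make cholesterol from acetyl-CoA through mevalonate, isoprenoids and squalene, and a growing Schwann cell makes much of the cholesterol of its myelin itself. The pathway is set by the transcription factor SREBP2, the product of *Srebf2*. When sterols are plentiful, SREBP2 is held in the endoplasmic reticulum by SCAP and the INSIG proteins, and when sterols are scarce it is carried to the Golgi, cleaved and sent to the nucleus, where it turns on the enzymes together. Sterol surplus acts in the other direction through the LXR receptors, which induce the efflux pumps *Abca1* and *Abcg1* and the ubiquitin ligase *Mylip*.

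Several libraries stood apart, and each is named by the replicate number in its label. *Mtmr2* was measured at 161, 130, 128 and 137 CPM (the count scaled to library size by TMM) in the WT libraries 4497 to 4500. It was at 71.6, 84.7, 143 and 69.5 CPM in the *Mtmr2* KO libraries 4501 to 4504, and at 66.8, 68.5, 68.3 and 73.5 CPM in the niacin-treated libraries 4505 to 4508. The library labelled *Mtmr2* KO 4503 therefore lay within the WT range and went against its label. The main edgeR results of the comparisons that use it are therefore also given without it. The DESeq2 and limma-voom fits were not repeated without it, nor were the fits adjusted for GC content and transcript length described below. The 7 skeletal muscle markers summed to 2802 and 2822 CPM in the niacin-treated libraries 4506 and 4507, against 9.97 to 90.4 CPM in the other 10. The 9 markers of myelinating Schwann cells, such as *Mbp*, were all present and summed to between 54827 and 85299 CPM. Total counts ran from 20763951 to 33191106 per library.

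The level of all genes also shifted with GC content in 5 libraries. The tested genes were split into 5 equal bins by the GC content of their longest transcript. In the bin of lowest GC content, the median log2 CPM lay above the WT mean by 0.44 in *Mtmr2* KO 4502 and by 0.23, 0.14, 0.24 and 0.34 in the niacin-treated libraries 4505 to 4508. In the bin of highest GC content, the same 5 medians were -0.46, -0.38, -0.21, -0.29 and -0.32. In the WT libraries and in *Mtmr2* KO 4501, 4503 and 4504, these medians stayed between -0.08 and 0.03. Every niacin-treated library thus carried the GC trend and no WT library did, so treatment and trend cannot be told apart. The levels also fell with transcript length. From the shortest to the longest of 5 bins, the median went from 0.51 to -0.23 in *Mtmr2* KO 4502, and from 0.20 to -0.13, 0.14 to -0.07, 0.30 to -0.14 and 0.39 to -0.17 in 4505 to 4508. WT 4500 went from 0.14 to -0.11 and *Mtmr2* KO 4504 from 0.17 to -0.10, both steeper than 4506. The GC content of the 30 genes ran from 40.1% in *Ggps1* to 59.1% in *Scap*, with a median of 48.7% against 49.6% over all tested genes. Results are therefore also given from a fit in which the trend on GC content and transcript length was taken out of each library.

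**Figure D1:**
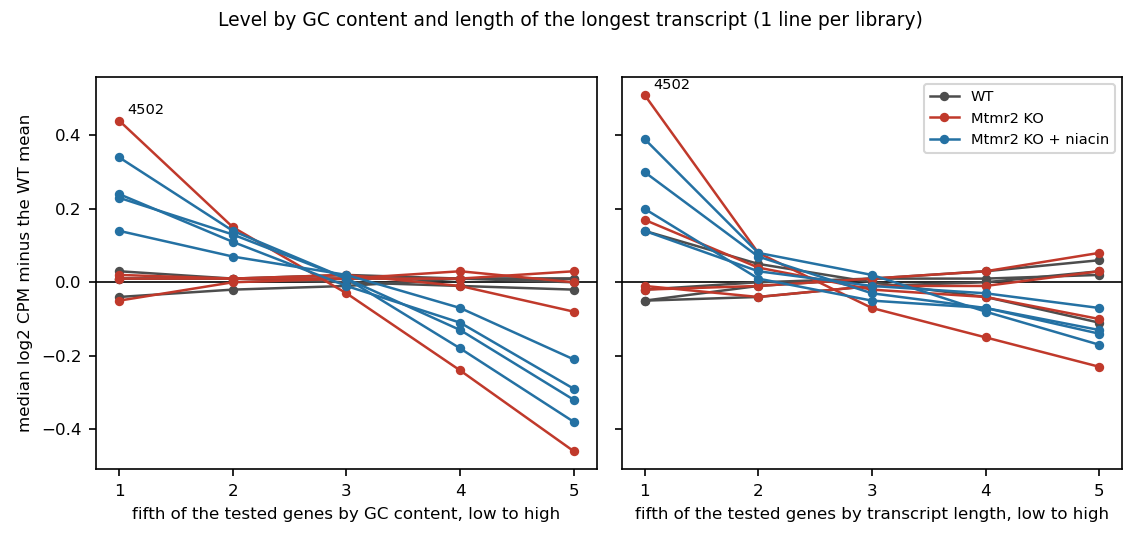
Median log2 CPM minus the WT mean (vertical axis) for 5 equal bins of the tested genes by GC content (left) and by length (right) of the longest transcript, with 1 line per library, grey for WT, red for *Mtmr2* KO and blue for niacin-treated *Mtmr2* KO. The 4 niacin-treated libraries and *Mtmr2* KO 4502 slope downward with GC content, from 0.14 to 0.44 at the lowest bin to between -0.21 and -0.46 at the highest, while the other 7 stay between -0.08 and 0.03 at both ends.

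In WT nerve the most abundant of the 30 genes, per kilobase of longest transcript, was *Hmgcs1*, at 617 ± 76.1 CPM per kb (SD, n = 4). *Hmgcs1* encodes the cytosolic HMG-CoA synthase that feeds the mevalonate pathway. It was followed by *Npc2* at 110 ± 7.64, *Msmo1* at 101 ± 10.7, *Fdps* at 94.1 ± 13.8 and *Insig1* at 93.4 ± 15 CPM per kb. Neighbours among these 4 differed by less than the larger SD of the pair. Of the 29 neighbouring pairs in the whole order, 21 did so, and the 8 that differed by more were *Hmgcs1* and *Npc2*, *Insig1* and *Cyp51*, *Cyp51* and *Srebf2*, *Mvk* and *Scap*, *Hsd17b7* and *Insig2*, *Insig2* and *Lbr*, *Lbr* and *Abca1*, and *Abcg1* and *Ggps1*. The lowest were *Abca1* at 6.91 ± 0.836, *Abcg1* at 6.91 ± 0.801 and *Ggps1* at 3.14 ± 0.23 CPM per kb. The 20 enzymes together held 5234, 4180, 4298 and 4925 CPM in the 4 WT libraries, and *Hmgcs1* alone made up 44.3% to 46.8% of that sum.

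Promoter windows were given for 24 of the 30 genes, from RefSeq on GRCm38.p6, each running from 250 bases before to 50 after the start of transcription. They were searched on both strands for the SREBP motif TCACNCCAC, the CCAAT box CCAAT and the GC box GGGCGG, bound by SREBPs, NF-Y and Sp1 in turn. The SREBP motif was found for 1 of the 24 genes, *Hmgcs1*, against 1.45% of the 11988 tested genes that had a window and 1.24% of all 32851 windows. A CCAAT box was found for 21 of the 24, against 42.2% of the 11988 tested genes that had a window and 37.4% of all windows. A GC box was found for 22 of the 24, against 65.4% and 35.7%. These are matches of letters, and a window without a match says nothing of the factor. The stretches below are the 150 bases before the start, 5′ to 3′ on the strand of the gene, with matches to any of the 3 motifs on either strand in capitals, and no match there overlapped one of another motif. They show the most abundant enzyme with the only SREBP motif (*Hmgcs1*, chr13:119690201-119690350, + strand), 2 enzymes whose levels lay higher in every niacin-treated library than in WT (*Idi1*, chr13:8885456-8885605, + strand, and *Msmo1*, chr8:64733579-64733728, - strand) and the gene of SREBP2 itself, 1 of 2 regulators that lay lower there (*Srebf2*, chr15:82147119-82147268, + strand).
Hmgcs1: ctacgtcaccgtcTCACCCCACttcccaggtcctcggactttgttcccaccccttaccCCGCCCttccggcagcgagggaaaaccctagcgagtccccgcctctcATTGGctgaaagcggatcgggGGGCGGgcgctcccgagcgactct
Idi1: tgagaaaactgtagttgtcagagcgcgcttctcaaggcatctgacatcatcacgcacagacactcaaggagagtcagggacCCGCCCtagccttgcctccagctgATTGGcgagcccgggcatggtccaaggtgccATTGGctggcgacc
Msmo1: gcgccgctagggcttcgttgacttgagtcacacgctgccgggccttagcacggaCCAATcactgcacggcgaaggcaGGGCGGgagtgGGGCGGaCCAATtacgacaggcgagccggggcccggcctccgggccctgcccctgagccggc
Srebf2: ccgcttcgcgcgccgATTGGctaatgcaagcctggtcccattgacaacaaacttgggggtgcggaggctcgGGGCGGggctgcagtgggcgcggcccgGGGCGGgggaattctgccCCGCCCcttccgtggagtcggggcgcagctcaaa

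The *Mtmr2* KO group did not behave as 1 group for the enzymes. *Hmgcs1* was at 2413, 1850, 1988 and 2302 CPM in WT, and at 2462, 1349, 804 and 2269 CPM in *Mtmr2* KO 4501 to 4504. Libraries 4501 and 4504 lay just above or within the WT range, and 4502 and 4503 lay below it. *Sqle*, the epoxidase of squalene, was at 284, 212, 224 and 227 CPM in WT and at 287, 91.6, 77.1 and 248 CPM in *Mtmr2* KO. *Dhcr7*, which reduces the last double bond on the way to cholesterol, was at 71.6, 47.7, 51.4 and 53.3 CPM in WT and at 63.1, 11.6, 18.9 and 52.8 CPM in *Mtmr2* KO. The same split was seen in both, with 4502 and 4503 below every WT library and the others at the WT level.

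Over the 20 enzymes, 13 lay below the whole WT range in 4502 and 18 in 4503, against 0 in 4501 and 2 in 4504. For all tested genes, 40.0% lay below the WT range in 4502 and 35.9% in 4503, against 22.9% and 28.1%. In the other direction, 16 enzymes lay above the WT range in 4501, 5 in 4502, 1 in 4503 and 3 in 4504, with 26.5%, 39.5%, 34.1% and 25.7% of all tested genes. The median log2 CPM of the 20 enzymes minus the WT mean was 0.33, -0.58, -1.21 and 0.08 in 4501 to 4504, while the 4 WT libraries lay between -0.11 and 0.17. With the GC and length trend taken out, the medians were 0.35, -0.63, -1.19 and 0.08. The enzymes were therefore as low in 4502 and 4503 without the trend as with it.

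**Figure D2:**
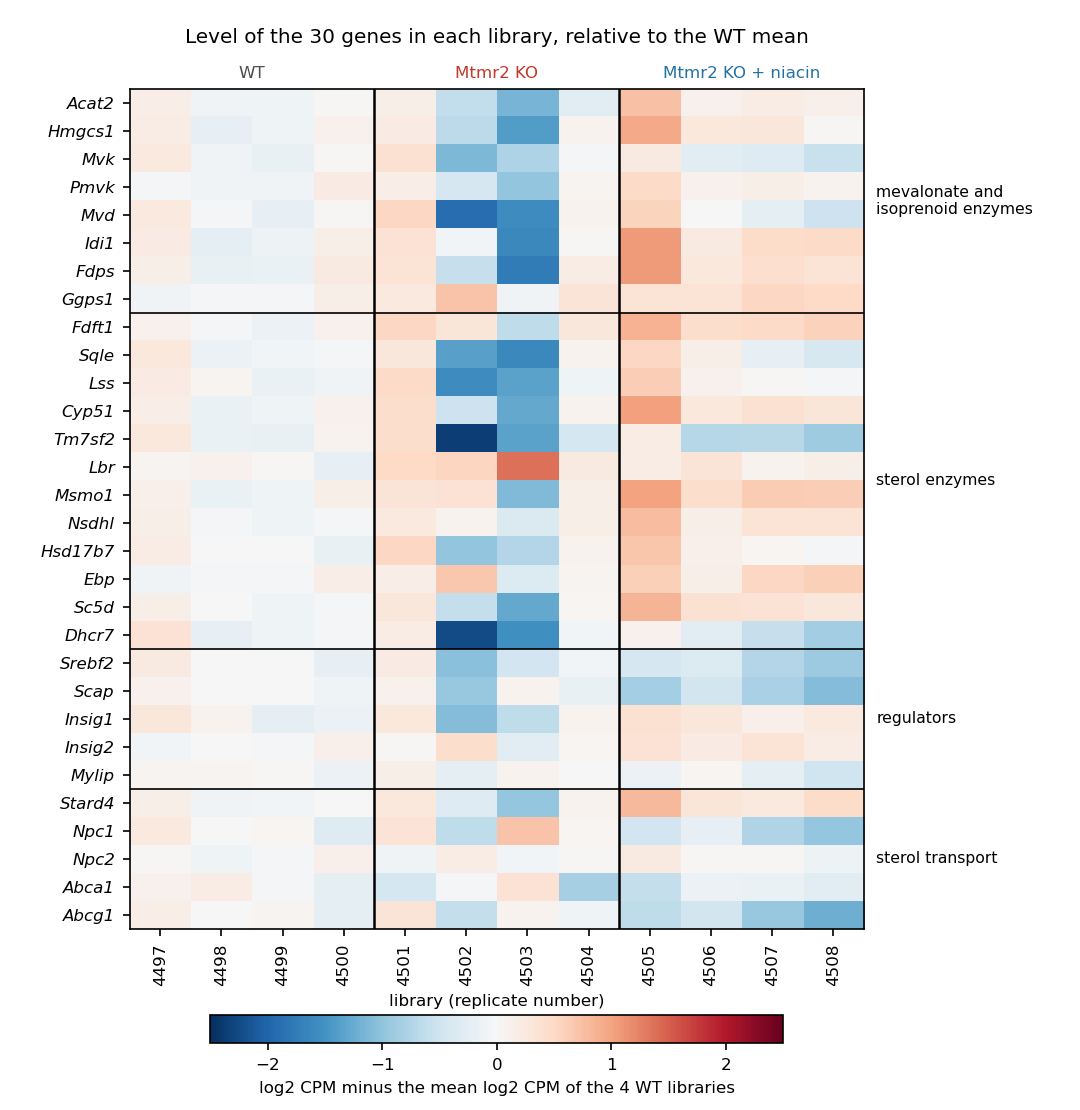
Log2 CPM of each of the 30 genes (rows, grouped by role) in each of the 12 libraries (columns) minus the mean of the 4 WT libraries, from blue (lower) to red (higher). *Mtmr2* KO 4502 and 4503 are blue over most enzymes with medians of -0.58 and -1.21, and the niacin-treated 4505 is red over most of them with a median of 0.66.

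The 2 low libraries differed from each other. *Idi1*, the isomerase of isopentenyl diphosphate, was at 183, 135, 46.3 and 144 CPM in 4501 to 4504, with 164, 121, 131 and 157 CPM in WT, so that it was low in 4503 alone. *Msmo1*, a sterol methyl oxidase, was at 373, 385, 138 and 328 CPM, with 325, 267, 276 and 328 CPM in WT. *Fdft1*, the squalene synthase, was at 312, 273, 142 and 267 CPM, with 236, 212, 198 and 235 CPM in WT. These 3 enzymes lay below the WT range in 4503 and not in 4502, where *Msmo1* and *Fdft1* lay above it. *Lbr*, a sterol reductase that is also a protein of the inner nuclear membrane, was at 41.8, 42.6, 40.3 and 34.6 CPM in WT and at 56.1, 57.2, 104 and 46.2 CPM in *Mtmr2* KO. It was the exception among the enzymes, with its highest level in 4503.

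The spread among *Mtmr2* KO libraries was accordingly wide. The median SD of the log2 level over the 20 enzymes was 0.16 in WT, 0.70 in *Mtmr2* KO and 0.32 in niacin-treated *Mtmr2* KO, against 0.16, 0.40 and 0.22 over all tested genes. With the trend taken out these were 0.15, 0.73 and 0.31 for the enzymes and 0.14, 0.32 and 0.21 for all tested genes. From the lowest to the highest *Mtmr2* KO library an enzyme differed by a median of 2.91-fold, against 1.87-fold over all tested genes and 1.28-fold for the enzymes in WT. Without 4503, the median SD was 0.46 for the enzymes and 0.36 for all tested genes in the other 3 *Mtmr2* KO libraries, and the median ratio 1.83-fold and 1.63-fold.

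The 13 genes of *Srebf1* and fatty acid synthesis, such as *Fasn*, *Scd1* and *Scd2*, were lowest in the same libraries, but their median was below that of every WT library in 4501 and 4504 too. Their median log2 CPM minus the WT mean was -0.30, -1.46, -1.31 and -0.67 in 4501 to 4504, against -0.24 to 0.44 in the WT libraries. The 8 adipocyte markers did not follow that order, with medians of -0.89, 0.34, -1.43 and -2.19 and summed levels of 2289, 5312, 1907 and 817 CPM against 3145 to 4070 CPM in WT. The myelinating Schwann cell markers had medians of 0.27, 0.30, 0.38 and 0.30. The 5 fibroblast markers had medians of -1.14, -0.65, -1.84 and 0.09, and the 4 endothelial markers -0.21, -1.48, 0.16 and -0.70. The 4 neutrophil markers, of which *S100a8* and *S100a9* passed the filter and *Ly6g* was at 0 in every WT library, summed to 15.4, 13.3, 3.75 and 0.818 CPM against 0.218 to 0.717 CPM in WT. The part of these cell types in the levels of the enzymes was not tested. In whole nerve, fewer cells of a type and less RNA per cell cannot be told apart.

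**Figure D3:**
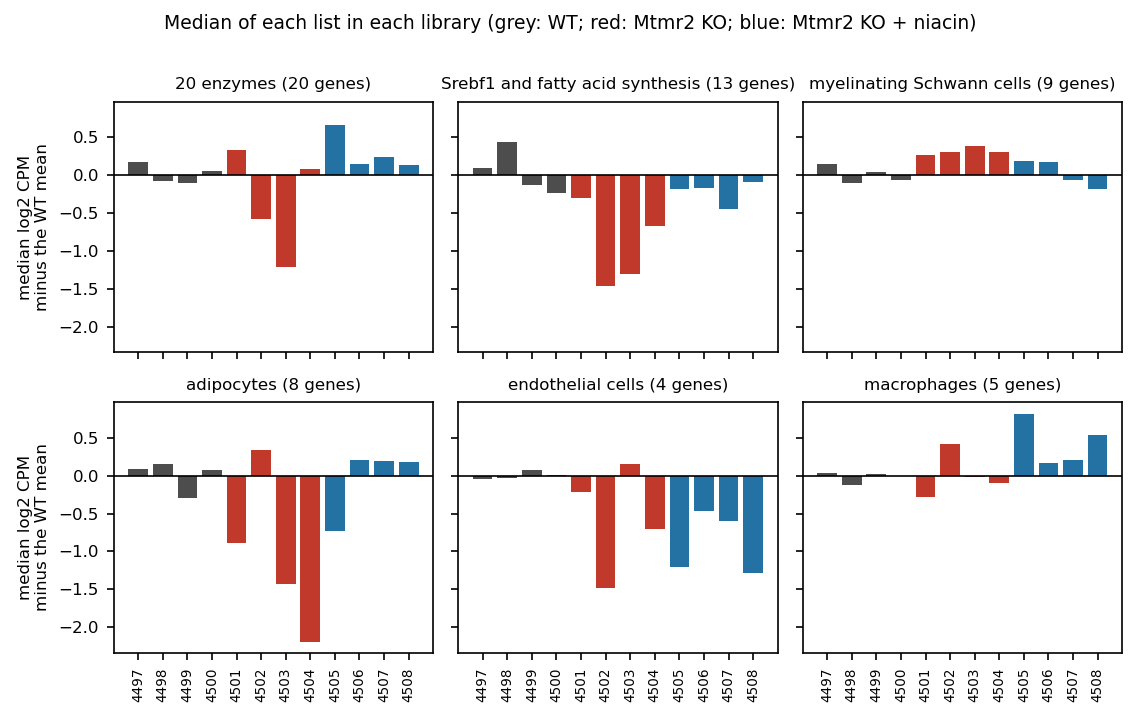
Median log2 CPM minus the WT mean (vertical axis) of the 20 enzymes and 5 other gene lists in each of the 12 libraries (horizontal axis), in grey for WT, red for *Mtmr2* KO and blue for niacin-treated *Mtmr2* KO. The enzymes and the fatty acid list are both low in 4502 and 4503, at -0.58 and -1.21 and at -1.46 and -1.31, while the myelinating Schwann cell markers stay between -0.18 and 0.38. The fatty acid list also lies below every WT library in 4501 and 4504, at -0.30 and -0.67.

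The first comparison asked how the loss of *Mtmr2* changed these genes. None of the 30 passed the test between *Mtmr2* KO and WT (edgeR quasi-likelihood test over 12 libraries, adjusted p under 0.05), where 0.0464% of the tested genes were called higher and 0.22% lower. At an unadjusted p under 0.05, 1 of the 30 was higher and 0 lower, with 9.35% and 7.9% of the tested genes. *Lbr* was that gene, and the only one whose libraries did not overlap between the groups, where 3.85% of the tested genes were higher without overlap and 5.46% lower. Its log2 fold change was 0.73 ± 0.20 (SE; edgeR adjusted p = 0.114), and its exact permutation p was 0.0286, the smallest that 4 against 4 libraries can give. DESeq2 called *Lbr* alone (log2 0.74, adjusted p = 0.0299), with 1.87% of the tested genes higher, and limma-voom called 0. Without 4503, its log2 fold change was 0.42 (adjusted p = 0.137, edgeR), and 3 of the 30 were higher and 1 lower at an unadjusted p under 0.05, with 10.5% and 7.76% of the tested genes. Those were *Lbr*, *Ggps1* and *Fdft1*, and *Abca1*. Without 4504 edgeR called *Lbr*, with 0.717% of the tested genes higher. The comparisons that follow share libraries with this one, so their results are not independent of it.

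The fitted fold changes of the enzymes were mostly below 0 and small against their errors. The median log2 fold change was -0.24 over the 20 enzymes and -0.18 over the 30 genes, against 0.03 over all tested genes, and 14 enzymes had an estimate below 0. The lowest estimates were -0.61 ± 0.41 for *Dhcr7*, -0.59 ± 0.43 for *Tm7sf2*, a sterol reductase, and -0.43 ± 0.36 for *Sqle*, with adjusted p from 0.462 to 0.562 by edgeR. Without 4503 the median over the 20 enzymes was -0.026. Without both 4502 and 4503 it was 0.193, and the estimates of 13 of the 14 enzymes turned positive, *Acat2* being the exception. The direction thus rested on those 2 libraries. No leave-out, of 1 library or of both, gave a call for any of the 14.

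The regulators and transport genes gave no call between *Mtmr2* KO and WT either. *Srebf2* was at 357, 303, 306 and 263 CPM in WT and at 355, 149, 219 and 294 CPM in *Mtmr2* KO. *Insig1*, an SREBP2 target that retains SCAP, was at 303, 264, 213 and 227 CPM in WT and at 299, 117, 160 and 266 CPM in *Mtmr2* KO. Both were low in the same 2 libraries as the enzymes. *Npc1*, which exports cholesterol from the lysosome, was at 245, 208, 214 and 166 CPM in WT and at 261, 132, 340 and 214 CPM in *Mtmr2* KO, with its highest level in 4503. *Npc2*, its soluble partner, hardly varied, with 336 to 395 CPM in WT and 340 to 409 CPM in *Mtmr2* KO.

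The next comparison asked whether niacin changed these genes in *Mtmr2* KO nerve. *Hmgcs1* was at 4115, 2557, 2590 and 2177 CPM in the niacin-treated libraries 4505 to 4508, where *Mtmr2* KO had 2462, 1349, 804 and 2269 CPM. The groups overlapped, since 4508 lay below 4501 and 4504. *Msmo1* was at 595, 404, 462 and 454 CPM with niacin and at 138 to 385 CPM without. It was the only one of the 30 whose libraries did not overlap, with 3.6% of the tested genes higher without overlap and 3.4% lower. The log2 fold change of *Msmo1* was 0.65 ± 0.26 (exact permutation p = 0.0286, edgeR adjusted p = 0.186). That of *Hmgcs1* was 0.73 ± 0.31 (exact permutation p = 0.114, edgeR adjusted p = 0.209). Without 4503, they were 0.40 for *Msmo1* (adjusted p = 0.294, edgeR) and 0.50 for *Hmgcs1* (adjusted p = 0.434).

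None of the 30 genes passed edgeR's test between niacin-treated and untreated *Mtmr2* KO, where 0.695% of the tested genes were called higher and 0.73% lower. At an unadjusted p under 0.05, 9 of the 30 were higher and 4 lower, with 8.01% and 12.1% of the tested genes. The 9 were *Acat2*, *Hmgcs1*, *Idi1*, *Fdps*, *Cyp51*, *Msmo1*, *Nsdhl*, *Sc5d* and *Stard4*, and the 4 were *Lbr*, *Scap*, *Npc1* and *Abcg1*. Without 4503 there were 5 and 3, with 6.04% and 7.27% of the tested genes, and *Hmgcs1*, *Fdps*, *Cyp51*, *Nsdhl* and *Lbr* were no longer among them. Of the 20 enzymes 19 had an estimate above 0, with a median of 0.43 against -0.04 over all tested genes, and the exception was *Lbr* at -0.54 ± 0.20, or -0.23 without 4503. The median was 0.244 without 4503, 0.161 without 4502 and 4503, and 0.498 with the GC and length trend taken out. Without 4502, edgeR called *Ebp* and *Insig2* higher and *Scap*, *Npc1* and *Abcg1* lower, which is 2 and 3 of the 30 beside 9.85% and 13.7% of the tested genes. Without both 4502 and 4503 it called 0 higher and 4 lower (*Srebf2*, *Scap*, *Npc1* and *Abcg1*), with 7.92% of the tested genes lower.

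Among the genes lower with niacin, *Abcg1*, an efflux pump for sterols, was at 25.8, 29.4, 20.7 and 17.2 CPM with niacin and at 50.5, 26.4, 42.7 and 37.1 CPM without. The lowest untreated library, 4502, fell inside the range with niacin, and the other 3 lay above it. Its log2 fold change was -0.75 ± 0.20 (edgeR adjusted p = 0.0783). *Npc1* was at 148, 178, 123 and 105 CPM with niacin and at 132 to 340 CPM without, with a log2 fold change of -0.77 ± 0.25 (edgeR adjusted p = 0.119). Without 4503, the log2 fold changes were -0.71 for *Abcg1* (adjusted p = 0.176, edgeR) and -0.55 for *Npc1* (adjusted p = 0.323). DESeq2 called both lower (adjusted p = 0.0162 for *Abcg1* and 0.0417 for *Npc1*), with 4.17% of the tested genes, and limma-voom called both and *Scap* lower, with 6.95%. With the trend taken out over 12 libraries, edgeR called *Abcg1* alone lower, at -0.55 ± 0.13 (adjusted p = 0.045), with 1.21% of the tested genes. In the fit of these 2 groups alone with the trend taken out, its log2 fold change was -0.55 ± 0.15 (adjusted p = 0.167, edgeR). That fit called 0% of the tested genes in either direction.

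The last comparison set niacin-treated *Mtmr2* KO against WT, 2 groups with smaller spread than *Mtmr2* KO. The 2 groups differed in both *Mtmr2* genotype and niacin, which cannot be told apart here. Levels given as with niacin are those of niacin-treated *Mtmr2* KO. The libraries of 9 of the 30 genes lay wholly higher with niacin and those of 3 wholly lower, with 14.9% and 16.6% of the tested genes. The 9 were the enzymes *Idi1*, *Fdps*, *Ggps1*, *Fdft1*, *Cyp51*, *Msmo1* and *Sc5d* with *Insig2* and *Stard4*, and the 3 were *Srebf2*, *Scap* and *Abcg1*. In the fit over 12 libraries edgeR called none of the 30 and 0% of the tested genes in either direction. At an unadjusted p under 0.05, 5 were higher and 4 lower, with 10.1% and 14.6% of the tested genes. DESeq2 called 0 higher and 2 lower (*Scap* and *Abcg1*), with 5.64% of the tested genes lower. limma-voom called 11 higher and 6 lower, with 20.8% and 21.5%. These 12-library counts changed with the *Mtmr2* KO libraries in the fit. Without 4503 edgeR called *Fdft1* and *Msmo1* higher, with 0.493% of the tested genes. Without 4502 it called *Ggps1* and *Ebp* higher and *Srebf2*, *Scap*, *Npc1* and *Abcg1* lower, with 8.9% and 12.7%. Without both it called 11 higher and 4 lower, with 13.8% and 15.8%. With all 12 libraries and the GC and length trend taken out, edgeR called none of the 30 and 0% of the tested genes.

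When edgeR was fitted to 2 groups alone, it called 0 of the 30 and 0% of the tested genes between *Mtmr2* KO and WT. The same held between niacin-treated and untreated *Mtmr2* KO. In edgeR's fit of niacin-treated *Mtmr2* KO and WT alone, 11 of the 30 were called higher and 4 lower, with 16.3% and 17.6% of the 16501 genes tested there. The 9 enzymes called higher were *Idi1*, *Fdps*, *Ggps1*, *Fdft1*, *Cyp51*, *Msmo1*, *Nsdhl*, *Ebp* and *Sc5d*, and 0 of the 20 were called lower. The regulator *Insig2* and the transport gene *Stard4* were also higher, and *Srebf2*, *Scap*, *Npc1* and *Abcg1* were lower. With the GC and length trend taken out of each library, the same fit called 5 higher and 3 lower, with 8.69% and 7.78% of the genes tested. The calls of *Idi1*, *Ggps1*, *Cyp51*, *Nsdhl*, *Sc5d*, *Insig2* and *Srebf2* were no longer made, 7 of the 15, and their log2 fold changes under both fits are given below.

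The enzymes called in both of these fits were *Fdps*, *Fdft1*, *Msmo1* and *Ebp*. *Msmo1* was at 325, 267, 276 and 328 CPM in WT and at 595, 404, 462 and 454 CPM with niacin, a log2 fold change of 0.68 ± 0.13 (adjusted p = 0.0042, edgeR) or 0.51 ± 0.12 with the trend taken out (adjusted p = 0.0181). *Fdft1* was at 236, 212, 198 and 235 CPM in WT and at 401, 295, 307 and 326 CPM with niacin, a log2 fold change of 0.60 ± 0.12 (adjusted p = 0.00438, edgeR) or 0.77 ± 0.12 (adjusted p = 0.00576). *Fdps*, the farnesyl diphosphate synthase, was at 304, 241, 245 and 321 CPM in WT and at 581, 329, 370 and 350 CPM with niacin, with the highest value in 4505. *Ebp*, a sterol isomerase, was at 32.6, 33.4, 33.9 and 39 CPM in WT and at 52.6, 38.3, 49.7 and 52.5 CPM with niacin, and its groups overlapped at 4506. *Fdps* had a log2 fold change of 0.56 ± 0.18 (adjusted p = 0.0322, edgeR) or 0.60 ± 0.18 (adjusted p = 0.0412), and *Ebp* one of 0.48 ± 0.11 (adjusted p = 0.0086) or 0.35 ± 0.09 (adjusted p = 0.0271). *Fdps* stood apart from the other 3 in that its call in the fit of 2 groups was lost without 4497, 4498, 4499, 4505 or 4507, and its log2 fold change was 0.33 ± 0.12 without 4505 (adjusted p = 0.0704, edgeR). *Fdft1*, *Msmo1* and *Ebp* were called whichever of the 8 libraries was left out. The gene of *Fdft1* overlaps the abundant *Ctsb* on the other strand, and the strand handling of the counts is not given, so reads of the 2 cannot be told apart there. *Cyp51*, *Ggps1* and *Npc1* overlap genes of the other strand in the same way, and *Tm7sf2* one of its own strand.

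Of the calls no longer made, *Idi1* was at 297, 167, 195 and 198 CPM with niacin, above the 121 to 164 CPM of WT, and its log2 fold change went from 0.58 ± 0.17 to 0.34 ± 0.16. *Cyp51*, the lanosterol demethylase, was at 342, 270, 282 and 327 CPM in WT and at 614, 363, 394 and 374 CPM with niacin, and went from 0.52 ± 0.17 to 0.46 ± 0.16. *Sc5d*, a sterol desaturase, was at 166, 151, 141 and 147 CPM in WT and at 270, 196, 194 and 184 CPM with niacin, and went from 0.48 ± 0.12 to 0.36 ± 0.11. All 3 kept their direction. *Ggps1*, which makes the isoprenoid for protein prenylation, is the gene of lowest GC content among the 30 and went from 0.43 ± 0.10 to 0.20 ± 0.08. *Nsdhl*, a dehydrogenase of sterol demethylation, went from 0.43 ± 0.13 to 0.21 ± 0.13, and *Insig2*, the second protein that retains SCAP, from 0.28 ± 0.08 to 0.12 ± 0.07.

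The other enzymes gave no call. *Acat2*, which joins acetyl-CoA units, was at 91.6 to 112 CPM in WT and at 164, 106, 113 and 107 CPM with niacin. *Pmvk*, the kinase of phosphomevalonate, was at 61.1 to 74.8 CPM in WT and at 90, 69.9, 72.3 and 68.8 CPM with niacin. In both, 4505 was alone above the rest of its group. *Mvk*, the mevalonate kinase, was at 75.9, 53.7, 51.5 and 43.8 CPM with niacin against 57.2 to 76.1 CPM in WT. *Mvd*, which makes isopentenyl diphosphate, was at 108, 73.4, 63 and 51.4 CPM against 63.5 to 86.6 CPM in WT, and its log2 fold change was 0.00 ± 0.19, or 0.24 ± 0.19 with the trend taken out. *Lss*, the lanosterol synthase, was at 249, 173, 164 and 157 CPM against 144 to 187 CPM in WT. *Hsd17b7*, a reductase of sterol demethylation, was at 133, 90.6, 85.5 and 80.2 CPM against 72.5 to 94.2 CPM, and *Sqle* at 338, 259, 203 and 178 CPM against 212 to 284 CPM. For each of these 5 enzymes, at least 1 niacin-treated library lay within the WT range.

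*Hmgcs1*, despite its abundance, gave no call against WT, with a log2 fold change of 0.42 ± 0.19 (adjusted p = 0.106, edgeR, these 2 groups alone) and of 0.24 with the trend taken out. The enzymes *Mvk*, *Tm7sf2* and *Dhcr7* had estimates below 0. *Tm7sf2* was at 106, 78.6, 77.2 and 92.8 CPM in WT and at 99.5, 53.2, 54.3 and 47.4 CPM with niacin, where 3 of the 4 treated libraries lay below WT. *Dhcr7* was at 59.6, 45.4, 37.2 and 30.2 CPM with niacin, where again 4505 was highest. Without 4505, the fit of these 2 groups called both of them and *Mvk* lower, among 7 of the 30 genes called higher and 7 lower, with 13.3% and 16.2% of the tested genes. Library 4505 held the highest level of its group for 18 of the 20 enzymes, beside 27.3% of all tested genes. The median of the 20 log2 fold changes over the 2 groups moved from 0.36 to 0.19 without 4505.

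*Srebf2* and *Scap*, the factor and its escort, lay lower in niacin-treated *Mtmr2* KO than in WT. *Srebf2* was at 228, 239, 183 and 163 CPM with niacin against 263 to 357 CPM in WT, a log2 fold change of -0.59 ± 0.14 (adjusted p = 0.00784, edgeR, these 2 groups alone), and of -0.11 ± 0.12 with the trend taken out (adjusted p = 0.564). *Scap* was at 108, 101, 99.5 and 93.5 CPM in WT and at 55.5, 73, 57.4 and 47 CPM with niacin, a log2 fold change of -0.78 ± 0.12 (adjusted p = 0.00224) and of -0.31 ± 0.10 with the trend taken out (adjusted p = 0.0487, edgeR). These are 2 of the most GC-rich of the 30 genes, at 57.9% and 59.1%. *Insig1* was at 326, 303, 272 and 295 CPM with niacin and overlapped WT, with a log2 fold change of 0.25 ± 0.12 and no call. *Mylip*, which sends the LDL receptor to degradation, was at 52.7, 59.7, 49.2 and 41 CPM with niacin and at 52.2 to 60.8 CPM in WT, without a call.

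In sterol transport, 1 gene was higher and 2 lower in both fits of these 2 groups alone. Over 12 libraries edgeR called none of them, with or without the trend. *Stard4*, a cytosolic sterol carrier, was at 119, 102, 103 and 108 CPM in WT and at 188, 134, 127 and 147 CPM with niacin, a log2 fold change of 0.47 ± 0.12 (adjusted p = 0.0139, edgeR, these 2 groups alone) or 0.40 ± 0.11 with the trend taken out (adjusted p = 0.034). *Abcg1* was at 45.1, 40.4, 41.8 and 34 CPM in WT and at 25.8, 29.4, 20.7 and 17.2 CPM with niacin, without overlap, a log2 fold change of -0.79 ± 0.15 (adjusted p = 0.00393) or -0.47 ± 0.12 (adjusted p = 0.0245, edgeR). *Npc1* was at 148, 178, 123 and 105 CPM with niacin and overlapped WT at 4506, with -0.58 ± 0.16 (adjusted p = 0.017) or -0.56 ± 0.14 (adjusted p = 0.0241, edgeR). *Abca1*, the other efflux pump, was at 46.9, 63.5, 62.9 and 58 CPM with niacin against 60.3 to 79.8 CPM in WT, without a call, and *Npc2* was at 333 to 425 CPM.

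**Figure D4:**
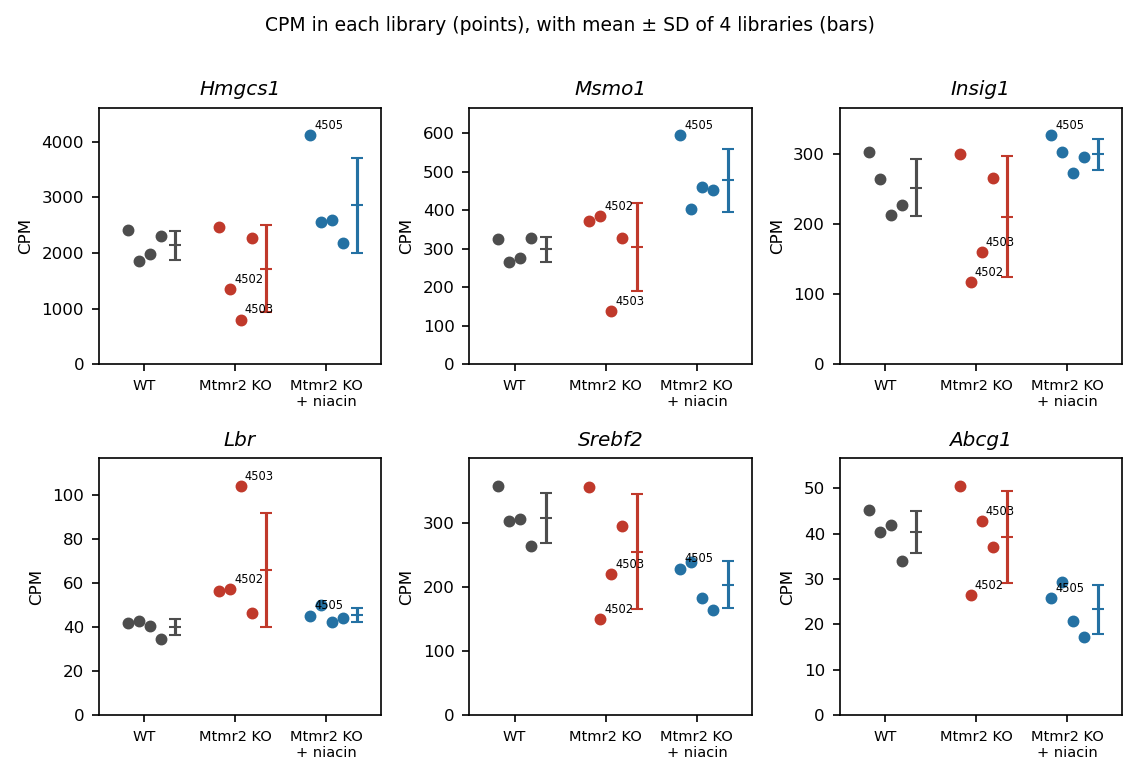
CPM (vertical axes, from 0) of 3 enzymes, 2 regulators and 1 efflux pump in every library by group, with points for libraries and bars for mean ± SD of 4. In niacin-treated *Mtmr2* KO, *Msmo1* lies above every WT library (404 to 595 CPM against 267 to 328 CPM) and *Abcg1* below (17.2 to 29.4 CPM against 34 to 45.1 CPM). *Mtmr2* KO 4502 and 4503 both lie below every WT library for *Hmgcs1*, *Insig1* and *Srebf2*. Of these 2 libraries, only 4503 does so for *Msmo1*, only 4502 for *Abcg1* and neither for *Lbr*.

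Other genes around the pathway were counted in the same fits. In edgeR's fit over 12 libraries 0 of the 49 genes of 4 further lists passed the test in any comparison. At an unadjusted p under 0.05 there were 2 higher and 9 lower between *Mtmr2* KO and WT, beside 9.35% and 7.9% of the tested genes, and 8 of the 9 were among the 13 genes of fatty acid synthesis. Between niacin-treated and untreated *Mtmr2* KO there were 4 higher, all of them of fatty acid synthesis, and 9 lower, 5 of them of sterol transport, esterification and oxidation and 4 of SREBP processing, beside 8.01% and 12.1%. Between niacin-treated *Mtmr2* KO and WT there were 4 and 12, 7 of the 12 of sterol transport, esterification and oxidation, beside 10.1% and 14.6%. DESeq2 and limma-voom were not summarised for these lists. In edgeR's fit of niacin-treated *Mtmr2* KO and WT alone, 7 of 14 genes of sterol transport, esterification and oxidation were called lower and 0 higher, among them *Lrp1*, a lipoprotein receptor, at -0.94 ± 0.15 (adjusted p = 0.00247), *Scarb1*, the HDL receptor, at -0.68 ± 0.11 (adjusted p = 0.0025) and *Soat1*, which esterifies cholesterol, at -0.29 ± 0.09 (adjusted p = 0.0326). Of 10 genes of SREBP processing and its control, 4 were lower and 0 higher. *Rxra* was at -0.65 ± 0.09 (adjusted p = 0.00218, edgeR) and *Mbtps1* at -0.41 ± 0.11 (adjusted p = 0.0166). The LXR genes changed least of the 4, *Nr1h3* at -0.26 ± 0.09 (adjusted p = 0.0407, edgeR) and *Nr1h2* at -0.22 ± 0.08 (adjusted p = 0.0456). Of 12 genes of the non-sterol branches, 2 were higher and 1 lower, and of 13 genes of fatty acid synthesis, 1 was higher (*Elovl5*) and 1 lower (*Srebf1*). These counts stand beside 16.3% of all genes called higher and 17.6% called lower in that fit. With the GC and length trend taken out, the median log2 CPM minus the WT mean of the 14 transport, esterification and oxidation genes went from -0.42, -0.26, -0.36 and -0.42 in 4505 to 4508 to -0.29, -0.05, -0.14 and -0.26. The medians of the 10 SREBP processing genes went from -0.21, -0.08, -0.24 and -0.31 to -0.02, 0.01, -0.13 and -0.25.

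Markers of other cell types moved between the same 2 groups. In the fit of niacin-treated *Mtmr2* KO and WT alone, all 7 skeletal muscle markers were called higher, all 4 endothelial markers lower and 3 of 5 macrophage markers higher. The endothelial markers summed to 190, 294, 285 and 185 CPM in 4505 to 4508 against 396 to 432 CPM in WT, and the macrophage markers to 586, 399, 365 and 448 CPM against 343 to 381 CPM. Of 8 adipocyte markers 1 was higher and 2 lower, and of 9 markers of myelinating Schwann cells 1 was lower. Of 6 markers of non-myelinating and repair Schwann cells 1 was higher and 2 lower, and of 5 fibroblast markers 1 was lower. Beside these counts, 16.3% of all genes were called higher and 17.6% lower in that fit. The part of these markers in the results was not tested. Without the muscle-bearing 4506 and 4507 the same fit called 10 of the 30 genes higher and 5 lower, with 10.9% and 14.1% of all genes. Leaving out each of the 8 libraries in turn, it called 5 to 12 higher and 3 to 7 lower, with 9.21% to 16.3% and 12.5% to 18.7% of the tested genes.

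**Figure D5:**
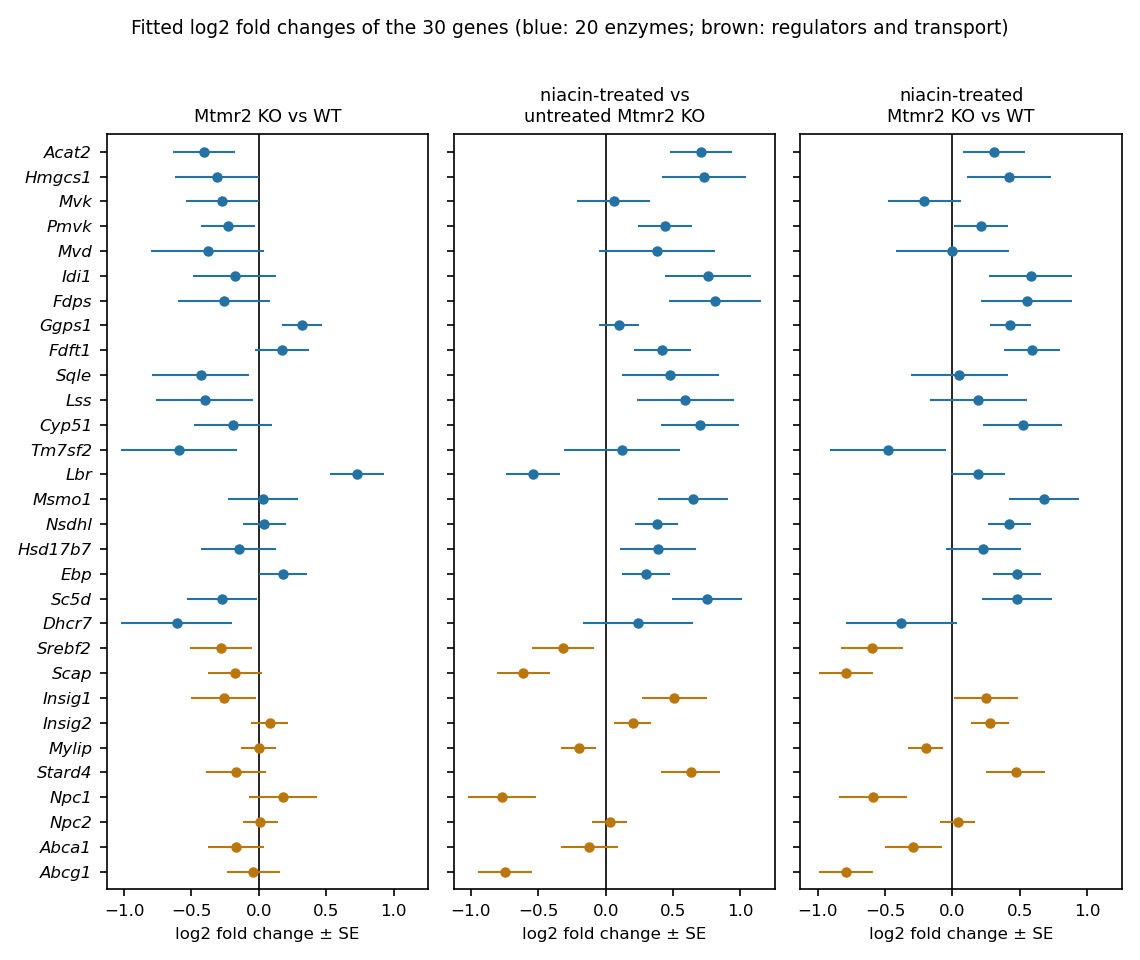
Log2 fold change ± SE (horizontal axis) of the 30 genes in the 3 comparisons of the fit over 12 libraries, in blue for enzymes and brown for regulators and transport. In niacin-treated *Mtmr2* KO, 19 of 20 enzymes lie above 0 against untreated *Mtmr2* KO and 16 of 20 against WT, while *Srebf2*, *Scap*, *Npc1* and *Abcg1* lie below 0 in both, and none of the 30 passed the test in this fit.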

How the data were processed

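RNA from 12 sciatic nerves was sequenced on Illumina HiSeq. Per the labels and the study's methods, the authors demultiplexed reads with CASAVA 1.9, aligned them with STAR to mouse GRCm38 (mm10) and deposited raw counts per gene. For the STAR version, counting program, annotation release and strand setting, nothing is stated: not given in the sources used here. Further deposited tables hold the authors' DESeq2 fold changes, errors and p-values. Only their gene symbols were used.

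Groups came from the labels, and the design text calls the libraries independent biological replicates. The counts, 20763951 to 33191106 per library, were tested with edgeR 4.0.16 (quasi-likelihood, TMM, default filter on low counts) in 1 model over 12 libraries, with Benjamini-Hochberg adjustment over 17257 genes and calls at adjusted p under 0.05. SE is the absolute log2 fold change over the square root of F. Exact permutation tests, two-sided, used all 70 draws of 4 from 8 libraries. Log2 CPM used a prior count of 2. DESeq2 1.42.0, limma-voom (limma 3.58.1), other filters, *Xist* as covariate and fits of 2 groups alone were alternatives. The trend on GC content and log2 length of the longest transcript was fitted per library by loess (span 0.3) and entered as an offset. Only the edgeR fit over 12 libraries was tested on simulated counts. Those counts had the same dispersion in every library, without the wider spread of *Mtmr2* KO. All 30 members are named, and genes of other lists only where called, among the 3 most abundant of their list, or where a result turns on them. The members and lists were chosen with earlier results of these data known. A gene of the cell type marker lists is not reported here. Promoter windows came from RefSeq (GRCm38.p6).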

Additional observations from a re-analysis of the deposited data

Results flagged for a closer look

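In 6 of the 90 combinations of gene and group, 1 library stood far from the other 3 of its group by Dixon's ratio (its gap to the nearest other library over the whole range of the group), where chance gives about 1 in 20 groups. The count itself was near that rate, and the ratio was not computed over all tested genes. In all 6 it was the niacin-treated library 4505, which was the highest. The ratio was 0.883 for *Acat2* (164 CPM against 106 to 113 CPM), 0.836 for *Pmvk* (90 CPM against 68.8 to 72.3 CPM) and 0.838 for *Fdps* (581 CPM against 329 to 370 CPM). It was 0.875 for *Cyp51* (614 CPM against 363 to 394 CPM), 0.868 for *Tm7sf2* (99.5 CPM against 47.4 to 54.3 CPM) and 0.855 for *Sc5d* (270 CPM against 184 to 196 CPM). The 6 enzymes share 1 library and are not independent. With the GC and length trend taken out, the median log2 CPM of the 20 enzymes minus the WT mean was 0.63 in 4505 and 0.17, 0.11 and 0.05 in 4506 to 4508.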

How the results depend on the processing

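No paired analysis was possible because the replicate numbers are not shared between groups. A set of 7 other settings and 12 fits that each left out 1 library were run on all results, with others chosen after seeing the data (libraries 4502 and 4503 left out, 4506 and 4507 left out, and the GC and length trend taken out). Beside the 0 members called by edgeR over 12 libraries, between *Mtmr2* KO and WT 1 was higher with DESeq2 (1.87% of all tested genes) and 0 to 1 on leaving out 1 library (0% to 1.15%). Between niacin-treated and untreated *Mtmr2* KO, 2 were lower with DESeq2 (4.17%), 3 with limma-voom (6.95%), 4 without 4502 and 4503 (7.92%) and 1 with the trend taken out (1.21%), and leaving out 1 library gave 0 to 2 higher and 0 to 3 lower (0% to 9.85% and 0% to 13.7%). Between niacin-treated *Mtmr2* KO and WT, limma-voom gave 11 higher and 6 lower (20.8% and 21.5%), the 2 groups alone 11 and 4 (16.3% and 17.6%), the same without the trend 5 and 3 (8.69% and 7.78%), the fit without 4502 and 4503 11 and 4 (13.8% and 15.8%), DESeq2 2 lower (5.64%), no filter 2 lower (0.632%), and leaving out 1 library 0 to 2 higher and 0 to 4 lower (0% to 8.9% and 0% to 12.7%). The largest of these last counts came without *Mtmr2* KO 4502 (2 higher and 4 lower), and 2 higher were also called without 4503. With the trend taken out, the fit of niacin-treated and untreated *Mtmr2* KO alone called 0 members (0%). With the trend taken out over 12 libraries, 0 members (0%) were called between niacin-treated *Mtmr2* KO and WT. The median log2 fold change of the 30 genes between *Mtmr2* KO and WT was 0.175 without 4502 and 4503, against -0.18 over 12 libraries. Of the single genes, 113 of the values under other settings changed sign, each without a call, and the cause was not tested. The changed log2 fold changes follow. With 4502 and 4503 left out, they were *Hmgcs1* 0.15, *Mvk* 0.19, *Pmvk* 0.12, *Mvd* 0.31, *Idi1* 0.19, *Fdps* 0.26, *Sqle* 0.18, *Lss* 0.21, *Cyp51* 0.26, *Tm7sf2* 0.05, *Hsd17b7* 0.32, *Sc5d* 0.17, *Dhcr7* 0.05, *Srebf2* 0.08, *Insig1* 0.17, *Stard4* 0.18, *Npc2* -0.03 and *Abcg1* 0.13 between *Mtmr2* KO and WT, and *Mvk* -0.40, *Mvd* -0.32, *Sqle* -0.14, *Lss* -0.02, *Tm7sf2* -0.53, *Hsd17b7* -0.09, *Dhcr7* -0.44 and *Abca1* 0.32 between niacin-treated and untreated *Mtmr2* KO. With limma-voom, they were *Fdps* 0.01, *Cyp51* 0.03, *Hsd17b7* 0.06, *Insig1* 0.01, *Stard4* 0.00, *Npc2* 0.00 and *Abcg1* 0.01 between *Mtmr2* KO and WT, and *Mvk* -0.23, *Mvd* -0.03, *Tm7sf2* -0.25, *Dhcr7* -0.17 and *Abca1* 0.25 between niacin-treated and untreated *Mtmr2* KO, and *Sqle* -0.07 between niacin-treated *Mtmr2* KO and WT. With no filter but 1 count in total, they were *Msmo1* -0.04, *Nsdhl* -0.03, *Mylip* -0.06 and *Npc2* -0.06 between *Mtmr2* KO and WT, and *Npc2* -0.01 between niacin-treated *Mtmr2* KO and WT. With the GC and length trend taken out (12 libraries), they were *Msmo1* -0.04, *Nsdhl* -0.05 and *Abcg1* 0.07 between *Mtmr2* KO and WT, and *Ggps1* 0.00 between niacin-treated and untreated *Mtmr2* KO, and *Mvk* 0.02 and *Mvd* 0.24 between niacin-treated *Mtmr2* KO and WT. With the trend taken out (2 compared groups alone), they were *Msmo1* -0.04, *Nsdhl* -0.04 and *Abcg1* 0.07 between *Mtmr2* KO and WT, and *Ggps1* 0.00 between niacin-treated and untreated *Mtmr2* KO, and *Mvk* 0.02 and *Mvd* 0.24 between niacin-treated *Mtmr2* KO and WT. With *Xist* as covariate, they were *Mylip* 0.00 between *Mtmr2* KO and WT, and *Mvd* 0.04 between niacin-treated *Mtmr2* KO and WT. With 4506 and 4507 left out, they were *Mylip* -0.02 and *Npc2* -0.01 between *Mtmr2* KO and WT, and *Mvd* 0.09 between niacin-treated *Mtmr2* KO and WT. With DESeq2, they were *Mvd* 0.00 between niacin-treated *Mtmr2* KO and WT. With DESeq2 size factors in edgeR, they were *Mvd* 0.00 between niacin-treated *Mtmr2* KO and WT. With the fit of the 2 compared groups alone, they were *Mvd* 0.00 between niacin-treated *Mtmr2* KO and WT. With at least 10 counts in every library, they were *Mvd* 0.01 between niacin-treated *Mtmr2* KO and WT. Leaving out 1 library, log2 fold changes between *Mtmr2* KO and WT that changed sign ran for *Idi1* from -0.41 to 0.10, *Fdps* from -0.52 to 0.02, *Cyp51* from -0.47 to 0.04, *Msmo1* from -0.10 to 0.27, *Nsdhl* from -0.04 to 0.15, *Hsd17b7* from -0.48 to 0.04, *Ebp* from -0.03 to 0.32, *Scap* from -0.29 to 0.00, *Insig2* from -0.07 to 0.18, *Mylip* from -0.05 to 0.07, *Stard4* from -0.34 to 0.02, *Npc1* from -0.04 to 0.38, *Npc2* from -0.05 to 0.05 and *Abcg1* from -0.19 to 0.11. Leaving out 1 library, log2 fold changes between niacin-treated and untreated *Mtmr2* KO that changed sign ran for *Mvk* from -0.15 to 0.37, *Ggps1* from -0.01 to 0.24, *Tm7sf2* from -0.20 to 0.72, *Dhcr7* from -0.07 to 0.64, *Npc2* from -0.03 to 0.08 and *Abca1* from -0.28 to 0.11. Leaving out 1 library, log2 fold changes between niacin-treated *Mtmr2* KO and WT that changed sign ran for *Mvd* from -0.25 to 0.14, *Sqle* from -0.15 to 0.17 and *Npc2* from -0.03 to 0.09.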
